A study of Mus musculus with 73 samples.

Results

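Cell division needs one set of proteins to copy the DNA and another to part the copies, and 40 genes of these sets, 23 of mitosis and 17 of DNA replication, were followed here in mouse jejunum. The genes were taken from a list of names, which was drawn up with earlier results of these data known. They are 40 of the 17399 genes listed for ablated and control epithelium, of the 20882 listed for microdissected stroma and of the 21058 listed for sorted single cells, and 39, 37 and 39 of them had a row in these tables. *Cdt1* had no row in the epithelium or the single cells, and *Kif11*, *Kif20a* and *Mcm4* had none in the stroma.

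The epithelium came from 8 male mice aged 4 months with the allele Lgr5(GFP-ires-DTR/+), in which the *Lgr5* locus drives the diphtheria toxin receptor. Diphtheria toxin (DT) was given to 4 of them and saline vehicle to the 4 controls, and jejunal epithelial cells were collected 48 h later. Both groups carried the allele, so the vehicle mice were the only control. The toxin acts on every *Lgr5*+ cell, which includes the crypt base stem cells of the epithelium as well as the villus tip telocytes of the stroma, and the response to either loss cannot be told apart in these samples. The stroma and the single cells came from untreated male C57BL/6 mice aged 3 months: laser capture microdissection (LCM) gave 6 crypt sections (3 mice) and, from 5 mice, 8 sections of the villus bottom, 7 of its center and 8 of its tip, and 36 plates of single cells were sorted from 8 mice.

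In the small intestine, cells divide in the crypts, and division stops as cells move onto the villus. The replication genes act in S phase. Mcm2 to Mcm7 form the helicase that Cdc6 and Cdt1 load, Gins2 activates it, Pcna, Fen1 and Lig1 complete the new strands, Rrm1, Rrm2, Tyms and Tk1 supply deoxynucleotides and Uhrf1 copies DNA methylation. The mitosis genes act later, from cyclins A and B with Cdk1, through the kinases Plk1, Aurka and Aurkb and the checkpoint proteins Bub1 and Bub1b, to Cdc20 and Ube2c, which mark cyclin B for destruction by the anaphase promoting complex.

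The promoters of both sets are shown because the letters that set them apart can be read from them. Promoters of late cell cycle genes often hold a CHR element (here TTTGAA or TTCGAA) near CCAAT boxes, and promoters of replication genes often hold an E2F site (here TTTCGCG or TTTGGCG). RefSeq promoters (250 bases before to 50 after the start, GRCm38.p6) were at hand for 17 mitosis and 15 replication genes, and the latter had 20 promoters. On either strand, CHR letters were in 13 of 17 mitosis promoters (76.5%), 3 of 20 replication promoters (15%) and 19.2% of all 32851 promoters. CHR and CCAAT together were in 13 of 17 (76.5%), 2 of 20 (10%) and 7.52%. E2F letters had the opposite order, with 1 of 17 (5.88%), 7 of 20 (35%) and 2.37% of all. CCAAT alone was in 15 of 17, 11 of 20 and 37.4% of all, and TATAAA in 0 of 17, 1 of 20 and 13.6%. A match is a description of letters and not of a bound site. The 160 bases before the start are given for *Cdc20* (minus strand, chr4:118437344-118437503), *Ube2c* (plus strand, chr2:164769769-164769928), *Cdk1* (minus strand, chr10:69352913-69353072), *Mki67* (minus strand, chr7:135716380-135716539), *Mcm5* (plus strand, chr8:75109349-75109508) and *Mcm6* (minus strand, chr1:128359706-128359865), 5′ to 3′ along the gene. Capitals mark CHR, CCAAT and E2F letters on either strand, and in *Mcm5* and *Mcm6* an E2F word on each strand overlaps the other in the longest run of capitals.
Cdc20: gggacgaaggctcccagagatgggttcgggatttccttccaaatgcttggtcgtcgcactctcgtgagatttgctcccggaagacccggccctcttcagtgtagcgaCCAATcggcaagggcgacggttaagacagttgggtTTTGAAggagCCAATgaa
Ube2c: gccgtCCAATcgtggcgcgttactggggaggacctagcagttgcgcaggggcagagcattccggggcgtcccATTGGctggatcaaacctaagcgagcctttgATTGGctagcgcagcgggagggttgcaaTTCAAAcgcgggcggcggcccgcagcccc
Cdk1: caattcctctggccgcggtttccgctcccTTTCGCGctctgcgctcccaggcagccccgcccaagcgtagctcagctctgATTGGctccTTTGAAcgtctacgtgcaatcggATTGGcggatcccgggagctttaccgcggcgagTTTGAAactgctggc
Mki67: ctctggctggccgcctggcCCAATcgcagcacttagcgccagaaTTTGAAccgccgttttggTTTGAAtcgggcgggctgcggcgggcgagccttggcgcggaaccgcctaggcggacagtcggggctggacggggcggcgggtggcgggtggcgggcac
Mcm5: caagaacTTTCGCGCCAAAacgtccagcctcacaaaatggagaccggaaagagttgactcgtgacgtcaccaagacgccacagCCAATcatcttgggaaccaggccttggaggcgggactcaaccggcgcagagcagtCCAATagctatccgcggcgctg
Mcm6: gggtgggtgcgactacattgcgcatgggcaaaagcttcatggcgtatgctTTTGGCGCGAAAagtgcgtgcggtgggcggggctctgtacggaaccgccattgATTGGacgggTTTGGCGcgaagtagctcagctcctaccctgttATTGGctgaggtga

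The ablation libraries held between 748458 and 4210158 unique molecular identifiers (UMIs, each a counted RNA molecule). They were made in 2 batches of 2 controls and 2 DT mice, batch a with replicates 1 and 2 and batch b with replicates 3 and 4, and batch was a term of the edgeR fit. Of the 40 genes, 38 passed the filter on low counts, and *Cdc6*, with 6 to 34 UMIs in a library, did not. Levels below are counts per 1e6 (CPM) after TMM scaling. Of all 8986 genes tested, 2 (0.0223%) were higher and 30 (0.334%) lower after DT at an adjusted p under 0.05. Epithelial marker genes summed to between 9182 and 13042 CPM in the 8 libraries, and mesenchymal markers to between 7.57 and 37.1 CPM.

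None of the 38 genes tested passed an adjusted p of 0.05 in edgeR with the filter on low counts, yet the log2 fold change of DT over control was above 0 for each of the 38, against 50.5% of all genes. Mitosis genes had a median fold of 1.48 (log2 0.57, range 0.04 to 0.98) and replication genes one of 1.36 (log2 0.44, range 0.03 to 0.78), where the median of all genes was 1.00. A fold above 1.5 was reached by 11 of 23 mitosis and 4 of 15 replication genes. The smallest adjusted p was 0.172 and the highest 0.968. At an unadjusted p under 0.05, 10 mitosis and 6 replication genes were higher, 42.1% of the 38 against 8.82% of all genes, and 0 were lower. Without the filter, edgeR called 9 mitosis and 3 replication genes higher, where 1.95% of 15502 genes were. A p that misses the threshold does not show that the levels were alike. Genes of a list were read in the same libraries and are not independent of each other. Counts of genes, here and below, are therefore no counts of replicates, and their difference from the shares of all genes was not tested. In bulk tissue, more cells in division and more RNA per dividing cell cannot be told apart.

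The largest fold changes belonged to the pair of genes that trigger exit from mitosis. *Cdc20*, the activator of the anaphase promoting complex, was at 11.6, 8.92, 37.4 and 46.3 CPM in controls 1 to 4 and at 16.03, 37.9, 70.9 and 72.8 in DT mice 1 to 4. Both DT libraries were above both controls within each batch, while the DT libraries of batch a were below at least 1 control of batch b. The log2 fold change was 0.98 (SE 0.26, adjusted p = 0.172 in edgeR). *Ube2c*, the ubiquitin conjugating enzyme of the same complex, was at 34.1, 17.8, 78.4 and 78.7 CPM in the controls and 51.5, 92.4, 112 and 129.6 after DT, again with no overlap within a batch (log2 0.95, SE 0.25, adjusted p = 0.175). *Birc5*, which encodes survivin of the chromosomal passenger complex, was at 38.5, 35.7, 102 and 104 against 72.6, 104, 115 and 180.4 CPM (log2 0.83, SE 0.22, adjusted p = 0.177). These 3 genes were called by DESeq2, where 0.793% of 5676 genes were called higher. *Birc5* had neither CHR nor CCAAT letters in its promoter, while the other two had both.

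**Figure D1:**
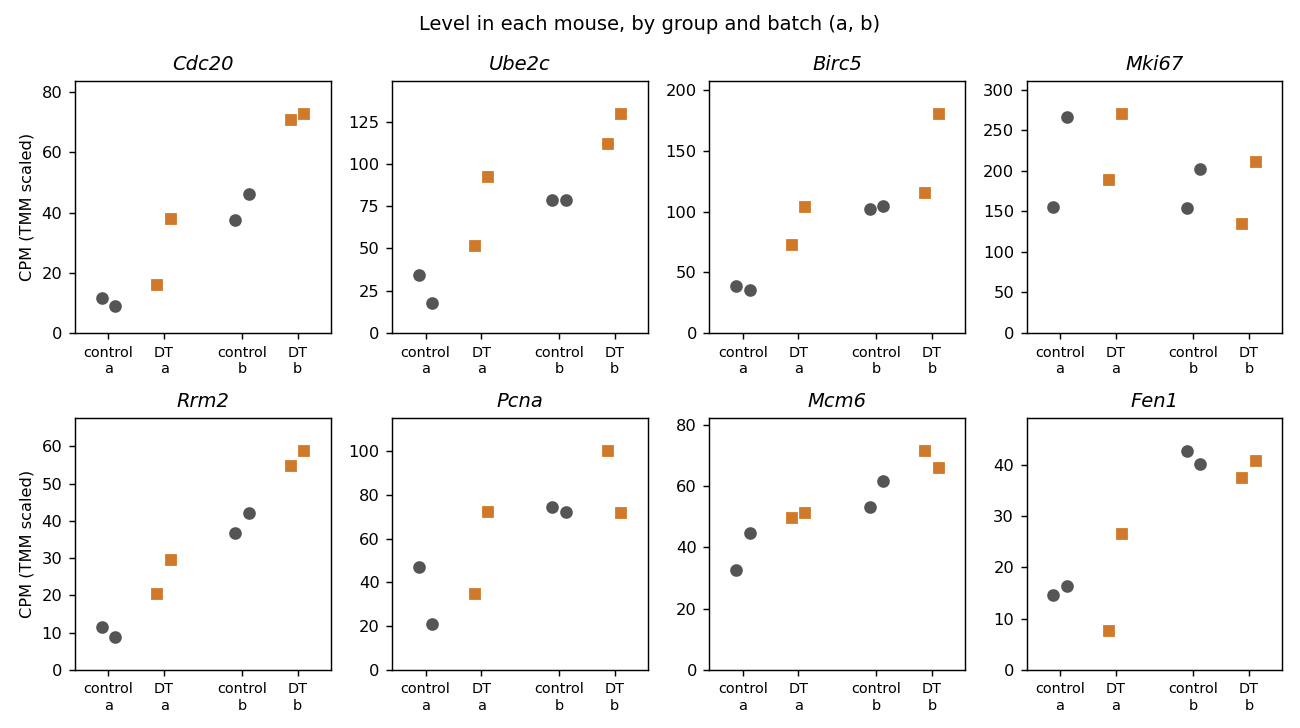
TMM scaled CPM (vertical axes, from 0) of 8 genes in each of the 8 mice, with controls as grey circles and DT mice as orange squares, in batch a and batch b. For *Cdc20*, *Ube2c*, *Birc5*, *Rrm2* and *Mcm6* both DT mice lie above both controls of their batch, while for *Mki67* and *Fen1* the groups overlap, and controls of batch b lie above those of batch a for each gene shown but *Mki67*.

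Cyclins, mitotic kinases and checkpoint genes ran from 0.85 to 0.40. *Ccnb1* (cyclin B1) was at 5.81, 2.97, 36.2 and 29.7 CPM in the controls and 7.59, 21.1, 48.6 and 50.1 after DT, and its log2 fold change was 0.85. *Ccnb2* (0.80), *Ccna2* (0.76) and their partner kinase *Cdk1* (0.78) lay close to it. *Cdk1* was at 11.6, 5.94, 36.9 and 40.03 CPM in the controls and 9.28, 44.7, 44.1 and 55.9 after DT, so that the first DT library lay between the controls of its batch. *Plk1*, the kinase of mitotic entry and spindle assembly, had a log2 fold change of 0.85, from 5.81, 10.4, 18.5 and 17.2 CPM to 9.28, 20.2, 29.4 and 31.5. The spindle pole kinase *Aurka* had 0.76 and the chromosomal passenger kinase *Aurkb* 0.44. The checkpoint genes *Bub1* and *Bub1b* had 0.66 and 0.40. Adjusted p-values of these 9 genes ran from 0.217 to 0.443.

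Genes of the kinetochore and the spindle ran from 0.69 to 0.21. *Cenpa*, the centromeric histone, had a log2 fold change of 0.69, *Spc24* of the Ndc80 complex 0.52, the kinetochore motor *Cenpe* 0.39 and *Cenpf* 0.22. Among microtubule genes, *Kif20a* had 0.57, *Tpx2* 0.41, *Kif11* 0.27, *Nusap1* 0.25 and *Stmn1* 0.21. *Top2a* and *Mki67*, the genes with the most UMIs, were at the low end, though *Birc5* and *Ube2c*, also among the 5 with the most UMIs, were at the high end. *Top2a*, the topoisomerase that untangles chromosomes, was at 250.4, 382, 269 and 286 CPM in the controls and 416, 406, 213 and 325 after DT (log2 0.16), with DT above control in batch a and 1 DT library below both controls in batch b. *Mki67*, the common proliferation marker, was at 155, 266, 154 and 202 against 189, 270.0, 134 and 210.3 CPM (log2 0.04, SE 0.23, adjusted p = 0.945), a difference within the spread between mice. *Cenpe*, next in level, was at 98.0, 162, 70.4 and 91.5 against 125, 166, 98.5 and 145 CPM.

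Among replication genes the enzymes of nucleotide supply led. *Rrm2*, the regulated subunit of ribonucleotide reductase, was at 11.6, 8.92, 36.7 and 42.2 CPM in the controls and 20.2, 29.5, 54.9 and 58.9 after DT, with no overlap within a batch (log2 0.77, SE 0.21, adjusted p = 0.192 in edgeR). Its partner *Rrm1* had a log2 fold change of 0.71 (24.7, 23.8, 56.3 and 59.9 against 38.81, 74.7, 68.8 and 78.7 CPM), and *Tyms*, thymidylate synthase, 0.78 (10.2, 13.4, 65.9 and 59.9 against 13.5, 44.3, 87.7 and 86.6 CPM). The salvage kinase *Tk1* differed from them, with 0.17. Helicase subunits ran from 0.59 for *Mcm7* through 0.51 (*Mcm3*), 0.50 (*Mcm2*), 0.44 (*Mcm4*) and 0.33 (*Mcm6*) to 0.30 (*Mcm5*), and *Gins2* had 0.46. Genes that finish the new strands ran from 0.39 to 0.03. *Pcna*, the sliding clamp, was at 47.2, 20.8, 74.5 and 72.2 CPM against 34.6, 72.3, 100.3 and 71.5 (log2 0.39), *Lig1*, the replicative ligase and the replication gene with the most UMIs, had 0.19 and *Fen1*, the flap nuclease, 0.03. *Uhrf1* had 0.31.

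**Figure D2:**
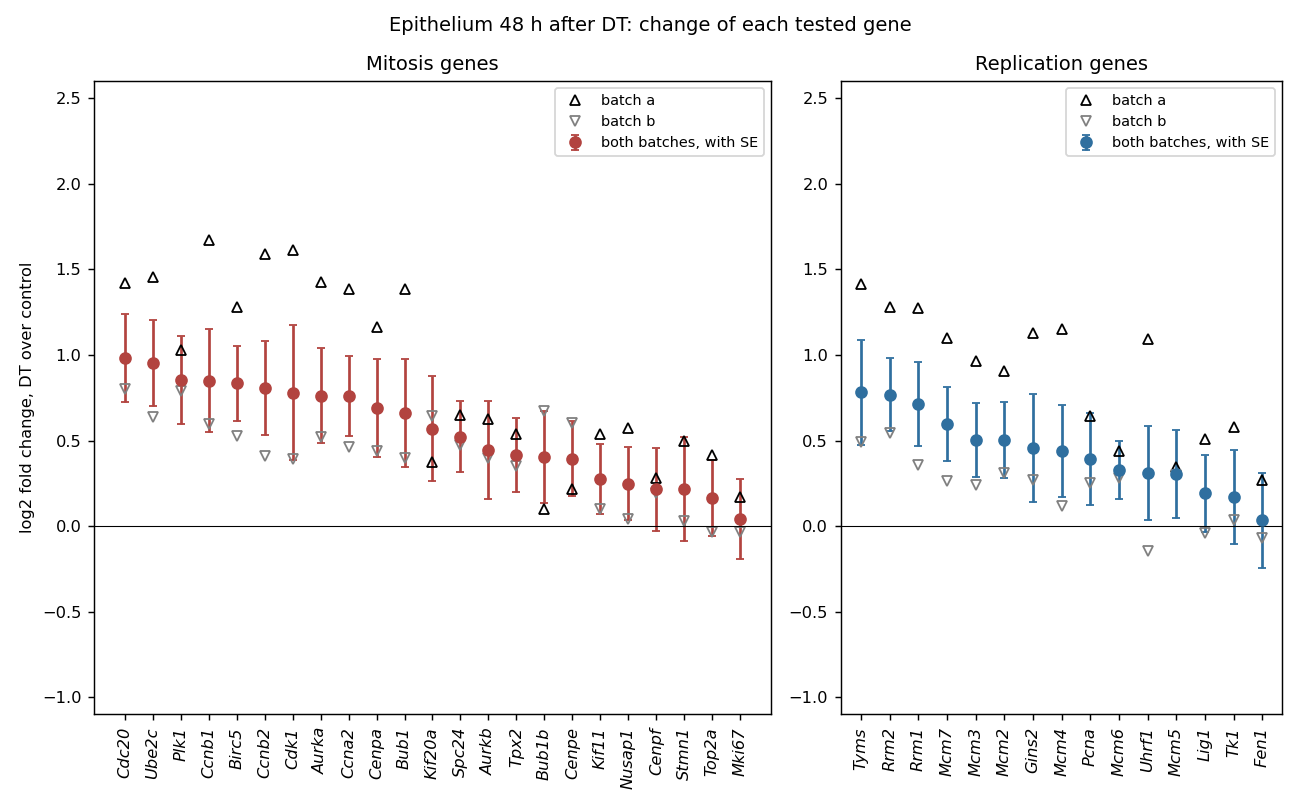
Log2 fold change of DT over control (vertical axis) for each of the 23 mitosis and 15 replication genes tested, with filled circles for the edgeR fit over both batches, bars for its SE and open triangles for batches a and b alone. Every filled circle lies above 0, from 0.03 for *Fen1* to 0.98 for *Cdc20*, and batch a lies above batch b for 35 of the 38 genes.

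The batches differed in size of change. Within batch a, 38 of 38 genes were above 0 (53.7% of all genes), with median log2 fold changes of 0.65 for mitosis and 0.96 for replication genes. Within batch b, 33 of 38 were above 0 (52.6% of all genes), with medians of 0.44 and 0.27. Both DT mice were above both controls in each batch for 16 of 38 genes (42.1%), which 9.69% of all genes met. All 4 DT mice were above all 4 controls for 0 of 38, and for 1.21% of all genes. The effect in batch b was below that in batch a for 35 of 38 genes (92.1%, against 55.5% of all genes), by a median of 0.57 on the log2 scale. In an edgeR fit with an interaction of DT and batch, 0 of the 38 passed an adjusted p of 0.05 (smallest 1.00), and 2 had an unadjusted p under 0.05, where 0 and 223 of all 8986 genes did.

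Control levels differed more between the batches than DT and control levels did. The mean of the batch b controls was above that of the batch a controls for 33 of 38 genes, by a median of 2.45-fold, where the median of all genes was 1.03-fold. Summed mitosis genes were at 897 and 1274 CPM in the controls of batch a and 1326 and 1473 in those of batch b, and at 1285 and 1754 and at 1467 and 1961 CPM in the DT mice. Summed replication genes were at 307 and 324 and at 674 and 720.2 CPM in the controls, and at 413 and 648 and at 770.3 and 845 in the DT mice. Thus 1 of the DT libraries of batch a was below the controls of batch b for mitosis genes, and both were for replication genes. The 5 genes that were not higher in batch b controls were *Bub1b* (0.49-fold), *Cenpe* (0.62-fold), *Mki67* (0.85-fold), *Top2a* (0.88-fold) and *Cenpf* (0.88-fold). Their median log2 fold change of DT over control was 0.22 (range 0.04 to 0.40), and that of the other 33 was 0.52. Low values in the batch a controls raise both measures, so this contrast is in part built in. Over the 38 genes, the log2 ratio of batch b to batch a controls had a Pearson correlation of 0.57 with the log2 fold change. With the log2 fold change of batch b alone, which uses the batch b controls, the correlation was 0.24. The part of the batch difference in the DT values was not tested beyond the batch term.

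The 4 DT mice did not contribute alike. DT 2 and DT 4 were each above both controls of their batch for 35 of 38 genes, DT 3 for 25 and DT 1 for 23, and DT 4 was the highest of the 8 libraries for 20 genes. Without DT 2 the median log2 fold change was 0.41 for mitosis and 0.24 for replication genes, the lowest of any fit that left out 1 mouse, and the second of these is more than 1.5 times below the value with all mice.

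Other genes of the cycle, from lists held beside the 40, had a like pattern for mitosis and a weaker one for the rest. Of 43 further mitosis genes tested, 43 were above 0 (median log2 0.49, 13 with an unadjusted p under 0.05, 0 called), led by *Cks1b* (1.23) and *Cks2* (1.07), small subunits of cyclin dependent kinases that are named here after their values were seen. Of 31 further replication genes, 24 were above 0 (median 0.24, 5 with an unadjusted p under 0.05, 0 called). Of 26 genes of cycle control, 16 were above 0 (median 0.08), with *Cdk4*, also named after its value was seen, at 0.95 and *Myc* and *Ccnd1* at 0.20 and 0.18. Of 8 p53 targets, 3 were above 0 (median -0.36).

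Levels of other cell types moved in the same libraries. Paneth cell genes, which mark the secretory cells of the crypt base, were below 0 for 8 of 8 tested (median log2 -2.19, 3 called lower), and their sum was 5525 to 16129 CPM in the controls and 899 to 2555 in the DT mice, with no overlap. Crypt stem cell genes were above 0 for 10 of 13 (median 0.27, 0 called), though *Lgr5* itself, the gene of the ablated cells, had -0.75 (adjusted p = 0.258). Enterocyte genes were above 0 for 2 of 16 (median -0.42, 2 called lower), and their sum was 42506 to 66186 CPM in controls and 37356 to 63428 after DT. Immune genes were above 0 for 0 of 11 (median -0.61, 0 called), and their sum of 322 to 1614 CPM in controls overlapped the 158 to 891 after DT. Their part in the values of the 40 genes was not tested.

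DT values were also set beside the promoter letters. Mitosis genes with CHR and CCAAT letters had a median log2 fold change of 0.69 (13 genes), and the other 4 with a promoter, *Nusap1*, *Cenpe*, *Birc5* and *Ccnb1*, one of 0.61. Replication genes with E2F letters had a median of 0.32 (6 genes tested) and those without 0.50 (7 genes). Of the promoters printed, *Cdc20* and *Mki67* both hold CHR and CCAAT letters and stood at opposite ends of the mitosis genes.

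In the microdissected stroma, all 37 listed genes passed the filter on low values (a zone mean above 5 parts per 1e6, ppm, after enterocyte genes were removed), among 13436 genes tested. The authors deposited transcripts per 1e6 (TPM), which keep no read number, so depth is unknown. Between 5481 and 17306 genes, and between 11 and 37 of the 37, were above 0 in a section. No gene, listed or not, passed an adjusted p of 0.05 in limma in any of 4 zone contrasts (0% called), and values below are on the log2(ppm + 1) scale, which understates changes of low genes.

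Most mitosis genes had lower fitted values in the stroma of the villus bottom than in that of the crypt, though none passed the threshold on adjusted p. Of the 21, 5 were lower in 3 of 3 mice. Summed mitosis genes were lower at the bottom in mice 1 (504 against 879 ppm) and 3 (504 against 1076). In mouse 2 they were higher (833 against 641 ppm). Between villus bottom and crypt, 19 of 21 mitosis genes were below 0 (median log2 -0.57) and 11 of 16 replication genes (median -0.50), where 50.8% of all genes were (median -0.02). An unadjusted p under 0.05 was reached by 2 mitosis genes and 2.45% of all genes. Between villus center and crypt, 16 of 21 (median -0.67) and 13 of 16 (median -0.74) were below 0, but so were 66.4% of all genes (median -0.36), and 4 mitosis genes against 5.12% of all had an unadjusted p under 0.05. At the villus tip, 14 of 21 mitosis genes (median -0.28) and 7 of 16 replication genes (median 0.19) were below the crypt, with 57.3% of all genes (median -0.15) and 0 members at an unadjusted p under 0.05 (3.05% of all). Against the villus bottom, the tip was higher for 17 of 21 (median 0.51) and 12 of 16 (median 0.58), where 54.4% of all genes were lower (median -0.11). *Bub1* was the single gene of the 37 that had an unadjusted p under 0.05 between tip and bottom, as 9.18% of all genes did. These medians rested on few mice. Without mouse 3 the mitosis median against the crypt was -0.10 for the bottom, -0.055 for the center and 0.20 for the tip, and without mouse 2 it was -1.32 at the bottom.

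*Ccnb2*, cyclin B2, was the gene most steadily high in the crypt. Its level was 79.8, 89.9 and 55.0 ppm in the crypt of mice 1 to 3, and over mice 1 to 5 it was 13.02, 22.01, 6.79, 0 and 9.51 ppm at the villus bottom, 63.7, 7.12, 0, 3.04 and 0 at its center and 73.1, 34.4, 7.32, 18.5 and 3.58 at its tip. The crypt was highest in 3 of 3 mice. The log2 difference from the crypt was -2.56 at the villus bottom (95% interval -4.72 to -0.41, adjusted p = 1.00 in limma), -3.11 at the center (-5.27 to -0.95, adjusted p = 0.926) and -1.39 at the tip (-3.55 to 0.77, adjusted p = 1.00). *Ccnb1* at the center was at -2.63 against the crypt (unadjusted p = 0.00352, adjusted p = 0.890 in limma), *Aurkb* at -2.33 and *Aurka* at -1.94. At the tip these genes were at -0.28, -0.32 and -1.04 against the crypt, and *Ccnb1* and *Aurkb* had their highest zone mean there.

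Single mice set the zone means. Summed mitosis genes had a mean of 865 ± 218 ppm over 3 crypts (SD, n = 3), and for 5 mice each (SD, n = 5) the villus bottom had 508 ± 198, the center 1141 ± 732 and the tip 956 ± 491. The center held 2324 ppm in mouse 4, of which *Top2a* alone gave 1429 ppm, and 468 to 1269 in the other mice. Summed replication genes were at 590 ± 224, 429 ± 78.9, 408 ± 143 and 867 ± 384 ppm in the same order. The tip held 1352 ppm in mouse 1 and 1187 in mouse 4, and 508 to 753 in the others. The highest zone mean was at the tip for 10 of 21 mitosis and 9 of 16 replication genes and in the crypt for 5 and 4. *Stmn1*, a microtubule destabilizer, was at 2.09 to 22.1 ppm in mice 4 and 5 and at 64.5 to 516 in mice 1 to 3, and only the latter gave crypts.

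Epithelial RNA was present in the dissected stroma. Genes of the marker lists were exempt from the removal of enterocyte genes. Epithelial markers gave sums of 10267 ± 4536 ppm for crypt (SD, n = 3) and of 7833 ± 3453, 6169 ± 2546 and 5938 ± 4302 ppm for bottom, center and tip (SD, n = 5 each). Paneth cell genes, whose cells sit in crypts, gave 76285 ± 74852 ppm for crypt and 106696 ± 138900 for tip. Immune markers summed to 852 ± 309, 1593 ± 769, 1315 ± 510.1 and 426 ± 203 ppm and mesenchymal markers to 965 ± 484, 639 ± 244, 1644 ± 1612 and 362 ± 279. Which cells the RNA of the 37 genes came from was not tested.

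**Figure D3:**
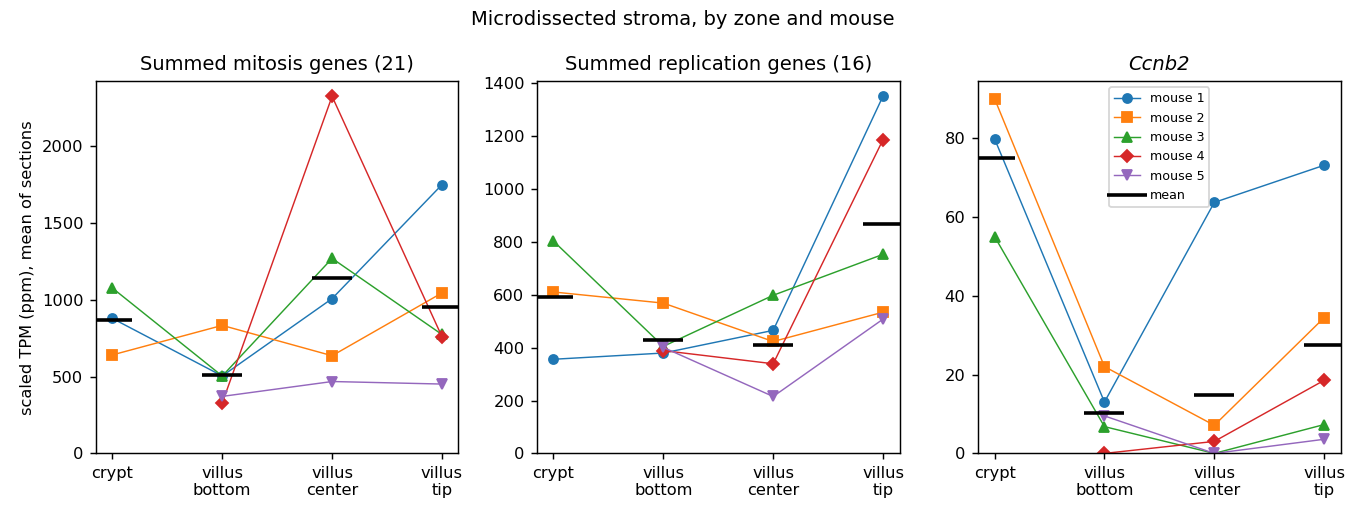
Scaled TPM (ppm, vertical axes, from 0) of summed mitosis genes, summed replication genes and *Ccnb2* in microdissected stroma of 4 zones (horizontal axes), each line 1 mouse and each black bar the mean over mice. *Ccnb2* is highest in the crypt in each of the 3 mice with a crypt, while the sums overlap between zones. The mean of the mitosis sum follows mouse 4 at the villus center, and that of the replication sum follows mice 1 and 4 at the tip.

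In the sorted cells most UMIs of the 40 genes lay in a small number of cells. Of 12346 wells, 2347 held 400 to 8000 UMIs and at least 250 genes, with a median of 1359 UMIs. By markers, 1812 cells were epithelial-like, 335 mesenchymal-like and 200 immune-like, and 0 were endothelial-like. Endothelial markers had 111 UMIs in all. Although sorting aimed at PDGFRa+ cells, the gate labelled CD45 singlets held 73 cells, of which 73 were epithelial-like and 0 immune-like. Each of 39 listed genes had at least 1 UMI, and together they had 1613 UMIs, 828 of mitosis and 785 of replication genes. No listed gene was found in 1910 cells, 1 gene in 291, 2 to 4 genes in 93 and 5 or more in 53. These 53 cells held 58% of the UMIs. There was no test in these data, since cells of 1 mouse are not replicates, and intervals cover counting error only.

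Shares of cells with a UMI were low and depended on depth. A mitosis gene was seen in 7.8% of cells (exact 95% binomial interval 6.74 to 8.96) and a replication gene in 14.4% (13 to 15.9), and at 400 UMIs per cell the shares were 3.23% and 5.11%. For background, 154 epithelial-like cells of a cluster led by the villus tip enterocyte genes *Slc28a2*, *Ada* and *Nt5e* (median 1508 UMIs), a cell state known not to divide, had a UMI of the 40 genes in 7.79% (4.09 to 13.2, or 1.95% at 400 UMIs). The 7300 wells under 200 UMIs, too few for a cell to be counted, had 34.2 UMIs of these genes per 100000 (28.7 to 40.4), close to the 36.0 (34.3 to 37.8) in cells, and the 1522 wells from 200 to under 400 UMIs had 20.2 (16.2 to 24.9). The tip enterocyte cluster had 4.76 per 100000, the lowest of the 20 clusters, so these backgrounds differed. Which of them holds inside a cell was not tested. A single UMI in a cell cannot be told apart from background, and the cells with 5 or more genes are described first.

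Of the 53 cells, 49 were epithelial-like (2.7% of 1812, interval 2.01 to 3.56), 3 mesenchymal-like (0.896% of 335, 0.185 to 2.59) and 1 immune-like (0.5% of 200, 0.0127 to 2.75). The classes differed in depth, with medians of 1603.5, 1020 and 666.5 UMIs per cell, and a rule of 5 genes counts deeper cells more often. By other measures epithelial-like cells were not the highest. A UMI of the 40 genes was seen at 400 UMIs per cell in 6.6% of epithelial-like, 7.73% of mesenchymal-like and 16% of immune-like cells, and these genes had 34.3, 40.2 and 66.2 UMIs per 100000. Of the 49 cells, 48 had more UMIs of epithelial markers than of any other class. The remaining cell, from PDGFRa singlets of mouse C (letters A to H name the 8 mice), had 510 UMIs with 0 of epithelial and 15 of immune markers, and was counted as epithelial-like through its cluster. A cluster of 107 epithelial-like cells, from 6 mice and 14 plates, held 43 of them and 56.5% of the UMIs of the 40 genes. Its leading genes were histone H2A genes together with *Stmn1* and *Spc24*. None of the cycle genes listed here was used for clustering, and 8 that varied enough had been held out, but histone genes were used. Its cells had 164 UMIs of mitosis and 104 of replication genes per 100000. Per gene, *Stmn1* was seen in 37.4% of its cells against 0.821% of other epithelial-like cells, *Pcna* in 36.4% against 7.21%, *Mki67* in 26.2% against 0.704% and *Mcm6* in 21.5% against 0.411%. Its median of 2973 UMIs per cell was above that of all cells, and the 53 cells had a median of 3671. At 400 UMIs per cell, a UMI of the 40 genes was seen in 51.5% of its cells, against 6.6% of all epithelial-like cells, these 107 included. The share was 1.95% to 13.3% in the other epithelial-like clusters. Epithelial-like clusters with medians of 4063.5 and 3116.5 UMIs had 5 or more genes in 0 of 138 and 4 of 122 cells. The part of depth in these counts was not tested.

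The balance of mitosis and replication UMIs varied among the 53 cells. Mitosis UMIs exceeded replication UMIs in 32 of the 53 cells, the opposite held in 20, and 1 cell had equal numbers. The mitosis list is the longer one, with 23 genes against 17, and the UMIs were not scaled for this. In 7 cells there was no replication UMI beside 5 or more mitosis genes, and 0 cells lacked a mitosis UMI. The cell with the most listed genes, an epithelial-like cell of the EPCAM PDGFRa doublet gate, had 49 mitosis and 9 replication UMIs of 21 genes among 7565 UMIs. The 3 mesenchymal-like cells had 31, 7 and 25 mitosis and 0, 14 and 6 replication UMIs, beside 29, 43 and 142 UMIs of mesenchymal markers and 0, 0 and 1 of epithelial markers.

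**Figure D4:**
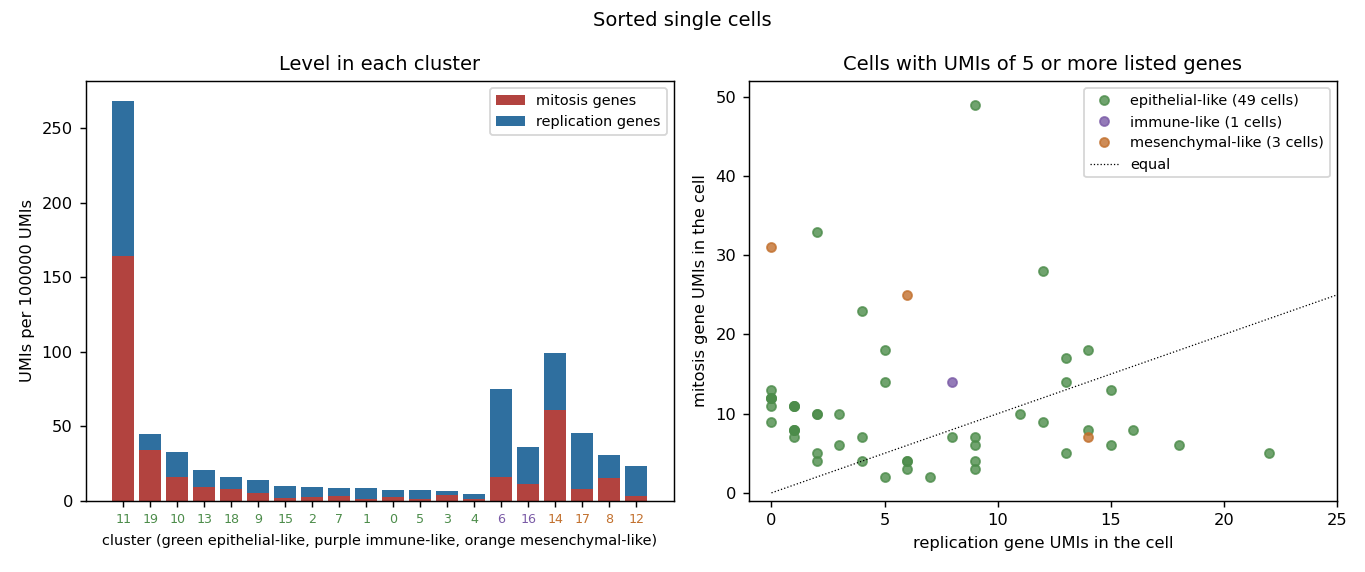
Left, UMIs of mitosis (red) and replication (blue) genes per 100000 UMIs in each of 20 clusters (stacked bars), with cluster numbers coloured by class, and right, mitosis against replication UMIs in each of the 53 cells with 5 or more listed genes, with a dotted line where both are equal. Cluster 11, with 164 and 104 per 100000, stands above all others, and 32 of the 53 cells lie above the line. UMIs are not scaled for the unequal list sizes.

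In rates over all cells of a class, single UMIs included, replication genes exceeded mitosis genes most in immune-like cells. Replication genes were at 51.2 UMIs per 100000 in them (40.8 to 63.6) and mitosis genes at 15.0 (9.61 to 22.3), where epithelial-like cells had 15.7 (14.5 to 17.0) and 18.6 (17.3 to 20.04) and mesenchymal-like cells 21.8 (17.5 to 26.9) and 18.3 (14.4 to 23.03). The 3 mesenchymal-like cells above held 63 of the 74 mitosis UMIs of their class, and the other 332 had 2.8 per 100000. Without the cells of 5 or more genes, replication genes were at 47.2 per 100000 in immune-like, 8.05 in epithelial-like and 17.3 in mesenchymal-like cells. Mitosis genes were then at 6.38, 5.79 and 2.8, so replication genes were higher in each class. The immune-like cell with 5 or more genes held 14 mitosis UMIs, and the other 199 immune-like cells held 10. *Mcm6* (12.5 per 100000), *Pcna* (11.9) and *Mcm2* (6.25) led in the immune-like cells, and *Pcna* in the epithelial-like ones (5.69). A replication gene was seen in 21.5% of immune-like cells (median 666.5 UMIs) and 13.7% of epithelial-like cells (median 1603.5), and at 400 UMIs in 13.9% and 3.87%. Immune-like cells of mice B and C, 83 and 115 of the 200 and from 1 plate each, had 55.2 (39.1 to 75.8) and 45.8 (32.6 to 62.6) replication UMIs per 100000.

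Mice and gates differed in how many such cells they gave. Of the 53 cells, 32 came from mouse A (4.44% of its 720 cells), 7 from F, 6 from C, 3 each from E and H and 1 each from B and G (0.161% of its 621 cells), and 21 remained without mouse A. The NT5E PDGFRa doublet gate, sorted from mouse A alone, had 9 of 126 cells (7.14%, 3.32 to 13.1), the gate labelled PDGFRa big 3 of 61 (4.92%, 1.03 to 13.7), the EPCAM PDGFRa doublet gate 14 of 557 (2.51%), PDGFRa singlets 19 of 957 (1.99%) and the gate labelled Pop3 8 of 461 (1.74%). The median depth of the first gate was 2895.5 UMIs per cell. The labels of 2 gates name doublets, and whether their wells held more than 1 cell was not tested.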

How the data were processed

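RNA was measured in 29 microdissected stroma sections, 8 epithelium samples and 36 plates of single cells, grouped by their GEO labels. Of the 36 plates, 35 had wells in the single-cell counts, and cells of 34 passed the filter. For epithelium and single cells the authors deposited UMI counts per gene, made with zUMIs on GRCm38 and not normalized. For stroma the authors deposited TPM made by pseudoalignment to GRCm38 coding transcripts (kallisto, then sleuth).

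Epithelium counts were tested with edgeR 4.0.16 (TMM, robust quasi-likelihood, Benjamini-Hochberg over all genes) on genes above 1e-05 of the UMIs in at least 2 samples. Batch was taken from the study's supplementary table. Same-numbered DT and control samples deviated together from their group means (correlations 0.61, 0.41, 0.66 and 0.58), and within batches they did not (-0.16 and -0.06), which pairs the samples by number through the batches. DESeq2 1.42.0 was run beside it.

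From the stroma, 350 of 375 highly expressed enterocyte genes, found from the control epithelium, were removed (4.61% to 32.6% of TPM). The rest were kept because they were on the gene or marker lists used here. Values were scaled to ppm over genes under 1% each, averaged over sections of a mouse and tested with limma 3.58.1 (trend) on log2(ppm + 1) with the mouse as a block. Crypt and tip of the same mouse deviated with correlations of 0.41, -0.01 and 0.14.

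Single cells were clustered with Seurat 5.3.0 (11 components, resolution 2). Clusters were named from marker lists. The authors' subtraction of empty wells was not repeated, no doublet caller was run, and 352 wells of a plate that matched no sample were not used. The 380 well barcodes recur between plates, and 0 pairs of cells were identical. Scripts were tested on simulated data.

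Rule for named genes: all 40, with values in every sample for called genes and for those at the highest level. The other genes given by sample, and all named genes of other lists, were picked after their values were seen. The 40 genes and all lists were chosen with earlier results of these data known. Overlap between antisense or paralogous genes was not resolved.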

Additional observations from a re-analysis of the deposited data

Results flagged for a closer look

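In 110 groups of 4 or 5 mice, the highest or lowest mouse stood apart by Dixon's test in 5. Chance gives about 1 in 20 where all mice of a group are alike. Groups of the epithelium mixed batches a and b, so this rate does not hold for them. In the epithelium, *Cdk1* in DT mouse 1 was at 9.28 CPM, where the other 3 DT mice were at 44.1 to 55.9. In the stroma of the villus bottom, *Top2a* in mouse 5 was at 12.2 ppm (30.2 to 39.2 in the others), *Spc24* in mouse 1 at 35.1 ppm (116 to 154 in the others) and *Pcna* in mouse 4 was listed at 0 (60.3 to 182 in the others). The sum of the replication genes at the villus bottom was 569 ppm in mouse 2 and 380 to 405 in the others.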

How the results depend on the processing

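In the epithelium, edgeR called 0 of the 38 genes, DESeq2 called 3 mitosis genes (*Cdc20*, *Ube2c* and *Birc5*), and edgeR with no filter on low counts called 9 mitosis and 3 replication genes. The median prior degrees of freedom of the edgeR fit were 6.84 with the filter and infinite without it. Over all genes, edgeR called 2 higher and 30 lower, DESeq2 45 and 98, the unfiltered fit 302 and 333, and the fit without a batch term 0 and 1. RLE size factors, the fit without batch, the replicate block and each fit without 1 mouse called 0 of the 38. With the replicate block the medians were 0.55 for mitosis and 0.37 for replication genes, calls over all genes were 0 and 3, and no call of a listed gene changed. Leaving out 1 mouse, the medians ran from 0.41 to 0.78 and from 0.24 to 0.57, and 21 to 23 mitosis and 13 to 15 replication genes were above 0. The sign turned for *Fen1* without the batch term (-0.049), with the replicate block (-0.066) and without control 1 (-0.036) or DT 2 (-0.24, range over mice -0.24 to 0.20). It also turned for *Mki67* without control 1 or 3 or DT 2 or 4 (range -0.12 to 0.19), for *Stmn1* without DT 4 (-0.10 to 0.53) and for *Tk1* without DT 2 (-0.058 to 0.30). The cause was not tested. No mouse was left out inside a batch, since 1 sample would remain against 2.

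In the stroma, 0 listed genes were called under any alternative. Leaving out 1 mouse, mitosis medians against the crypt ran from -1.32 to -0.10 at the villus bottom, -1.04 to -0.055 at the center and -0.40 to 0.20 at the tip, and replication medians from -0.72 to -0.14, -0.86 to -0.53 and -0.20 to 0.49. For tip against bottom they ran from 0.32 to 0.88 and 0.47 to 0.79. The tip mitosis median against the crypt was -0.91 at a pseudocount of 0.1 ppm. Without the replicate block (the mouse), medians in the same order were -0.56, -0.73 and -0.21 for mitosis and -0.77, -0.78 and -0.15 for replication genes.

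In single cells, the share with a mitosis UMI was 6.14% with cells from 200 UMIs and 3.23% at 400 UMIs per cell, and that with a replication UMI 10.8% and 5.11%. Without mouse A, an alternative added after seeing the data, 21 cells with 5 or more genes remained. Depth limits all single cell shares, and the depth of the stroma is unknown.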

Other observations

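Histone H2A genes, which are made in S phase, led a further cluster of 30 epithelial-like cells, but the 40 genes had 15.9 UMIs per 100000 there, below the 36.0 of all cells. The 36.0 includes the cluster of 107 epithelial-like cells, which held 56.5% of these UMIs. Over the epithelial-like clusters the rate ran from 4.76 to 268, the latter in the cluster of 107 cells. Cells of an epithelial-like cluster led by the goblet cell genes *Zg16*, *Tff3* and *Muc2* had 34.0 UMIs of mitosis and 10.9 of replication genes per 100000. In that cluster, 2 of 26 cells had 5 or more listed genes. These 2 cells held 23 of its 25 mitosis UMIs and 2 of its 8 replication UMIs, and the other 24 had 3.06 mitosis UMIs per 100000. A mesenchymal-like cluster led by *Ednrb*, *Acta2* and *Myl9* (69 cells) had 60.8 and 38.4 per 100000, and 2 of its cells with 5 or more listed genes held all 38 of its mitosis UMIs and 14 of its 24 replication UMIs.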
